A study of Mus musculus with 16 samples.

Results

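The miR-30 family was measured here in mouse liver tumours and non-tumour liver by 7 of its mature strands, out of 566 mouse miRNAs on the array. The 7 were taken by name from the array's own annotation: 5 guide strands (mmu-miR-30a, mmu-miR-30b, mmu-miR-30c, mmu-miR-30d and mmu-miR-30e) and 2 star strands (mmu-miR-30a* and mmu-miR-30e*), written below without the species prefix. A miRNA hairpin is cut into a duplex, and the guide is the strand that is mostly kept in the silencing complex, while the star strand is the opposite strand, mostly discarded. All 5 guides were detected on 16 of 16 arrays, miR-30a* on 15 and miR-30e* on 12, and all 7 were among the 96 mouse miRNAs tested.

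Livers came from male mice of C3H/HeJ, an inbred line that develops liver tumours readily, and their total RNA was labelled with Cy3 and hybridised to 16 one-colour Agilent miRNA arrays. Per the design text, the mice had received a single injection of DEN, a liver carcinogen, at 10 or 90 µg per g body weight and at 2 or 6 weeks of age. The labels do not say which mouse received which dose, and nothing in them sets the control livers apart from it. Feeding began 2 weeks later. The 7 Ctnnb1-mutated tumours (Ctnnb1 encodes β-catenin) and 3 non-tumour livers named as their controls are labelled phenobarbital, given at 0.05% in the diet per the design text. The 3 Ha-ras-mutated tumours (Ha-ras encodes a small GTPase) and 3 non-tumour livers named as their controls are labelled H2O and are called phenobarbital-free here. The labels give 27 weeks of treatment in every group, whereas the design text gives 28 to 36 weeks, and a protocol text describes a much shorter phenobarbital dosing in drinking water. Age at sampling is not given, nor is it stated that replicates came from separate mice, so p-values measure the spread between these samples alone. The Ctnnb1 and Ha-ras tumours differ in phenobarbital as well as in mutation, and in their comparison the 2 cannot be told apart. Whether DEN dose or age at injection also differed between these tumours, or between the control groups, is not given. Slide differed in part, as described below.

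The guides of the family share a seed, the stretch near the 5′ end that pairs with target mRNAs. They therefore have largely the same predicted targets. The stars miR-30a* and miR-30e* share another seed. In zebrafish the family is known to be needed for bile duct development, and in mouse liver miR-30c lowers the microsomal triglyceride transfer protein used to load lipoproteins. In human cells, miR-30a is known to repress the autophagy gene BECN1, miR-30b and miR-30d together GALNT7, and miR-30e* the NF-κB inhibitor NFKBIA.

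The mature sequences show why guides and stars form separate seed groups and how alike miR-30a and miR-30e are. They are from RefSeq (GRCm38.p6), which gave an entry for 5 of the 7 members, and capitals mark the seed, bases 2 to 8.
miR-30a: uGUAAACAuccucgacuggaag
miR-30c: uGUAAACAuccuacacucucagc
miR-30e: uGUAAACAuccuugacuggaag
miR-30a*: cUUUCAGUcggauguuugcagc
miR-30e*: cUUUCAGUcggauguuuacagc
The guides miR-30a and miR-30e differ at 1 position counted from the 5′ end, C13U with the miR-30a base first. Their star strands likewise differ at 1 position, G18A with the miR-30a* base first. How far a probe for either strand of such a pair also binds the other was not tested.

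The guide miR-30a and its star lie at chr1:23272274-23272295 and chr1:23272315-23272336 on the plus strand, within the hairpin gene Mir30a. The guide miR-30e and its star lie at chr4:120772660-120772681 and chr4:120772618-120772639 on the minus strand, within Mir30e. The guide miR-30c has a copy beside each of these hairpins, in Mir30c-2 at chr1:23291714-23291736 (plus strand) and in Mir30c-1 at chr4:120769584-120769606 (minus strand). Mir30e and Mir30c-1 both lie within the protein-coding gene Nfyc, a subunit of a CCAAT-binding transcription factor. The remaining hairpins, Mir30b and Mir30d, neighbour each other.

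Levels are log2 values of the scanner software's background-corrected intensity, after each array was scaled to a common 75th percentile and averaged over the probes of a miRNA. Signals under a floor of log2 4.64, the typical limit of detection, were set to it. The weakest scaled signal called detected varied between arrays, from 15.6 in Ha-ras tumour replicate 1 to 43.6 in phenobarbital control replicate 4. The floor itself is a signal of 24.96. Probes of different miRNAs differ in brightness, so a level is compared only between arrays for the same miRNA. The star strands lay close to the floor, from 4.64 to 5.42, which compresses their differences. As signals these levels were 24.96 to 42.7, inside the range of those array limits. The part of unequal limits in the star differences was not tested. Of the 15 member probes, 1 of the 2 probes for miR-30b and 1 of the 2 for miR-30e* were at the floor on all 16 arrays, so averaging shrinks the changes of these 2 miRNAs to 0.5 of those on the measurable probe. Another 4 probes were at the floor on some arrays, unevenly between groups: the dimmer ones of miR-30c, miR-30e and miR-30a* and the measurable one of miR-30e*. That of miR-30c was so in 4 Ctnnb1 tumours only. That of miR-30e was so in 5 Ctnnb1 tumours, 1 phenobarbital control and 2 Ha-ras tumours, and in 0 phenobarbital-free controls. For this reason the brightest probe of each miRNA is given beside the mean over probes. Differences were tested with limma over the 96 miRNAs, and a member is said to have risen or fallen where the Benjamini-Hochberg adjusted p was under 0.05.

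The liver miRNA miR-122, which defines hepatocytes, was strong on every array, at log2 13.09 to 14.19 in Ctnnb1 tumours, 13.95 to 14.22 in phenobarbital controls, 13.97 to 14.47 in Ha-ras tumours and 14.14 to 14.24 in phenobarbital-free controls. Between 83 and 117 mouse miRNAs were detected per array. Of the 4 markers listed for mesenchyme and smooth muscle, miR-199a-3p and miR-143 were detected on some array and miR-145 and miR-214 on none. Their summed signal was lower in tumours, at 109 to 144 in Ctnnb1 tumours against 184 to 194 in phenobarbital controls, and at 106 to 109 in Ha-ras tumours against 140 to 224 in phenobarbital-free controls. Each marker at the floor still adds 24.96 to such a sum, so the sums of the Ha-ras tumours are mostly floor. The marker miR-199a-3p fell in both kinds of tumour, with log2 changes of -1.16 and -1.51 (limma adjusted p = 0.00187 and 0.000509). The endothelial marker miR-126-3p had a signal of 529 to 765 in Ctnnb1 tumours against 775 to 782 in phenobarbital controls, a log2 difference of -0.28 that did not pass (limma adjusted p = 0.154). Summed leukocyte, erythroid and biliary epithelial markers overlapped between each kind of tumour and its controls, and the pancreas marker miR-375 was at the floor on every array. The biliary sums lay at or near the floor of their 3 markers, so their overlap tells little. The part of these cells in the results below was not tested, and in bulk tissue fewer cells of a type and less RNA per cell cannot be told apart. All 7 Ctnnb1 tumours shared slide 1 with Ha-ras tumour replicate 1, and the other 8 arrays lay on slides 2 and 3, which held no Ctnnb1 tumour.

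**Figure D1:**
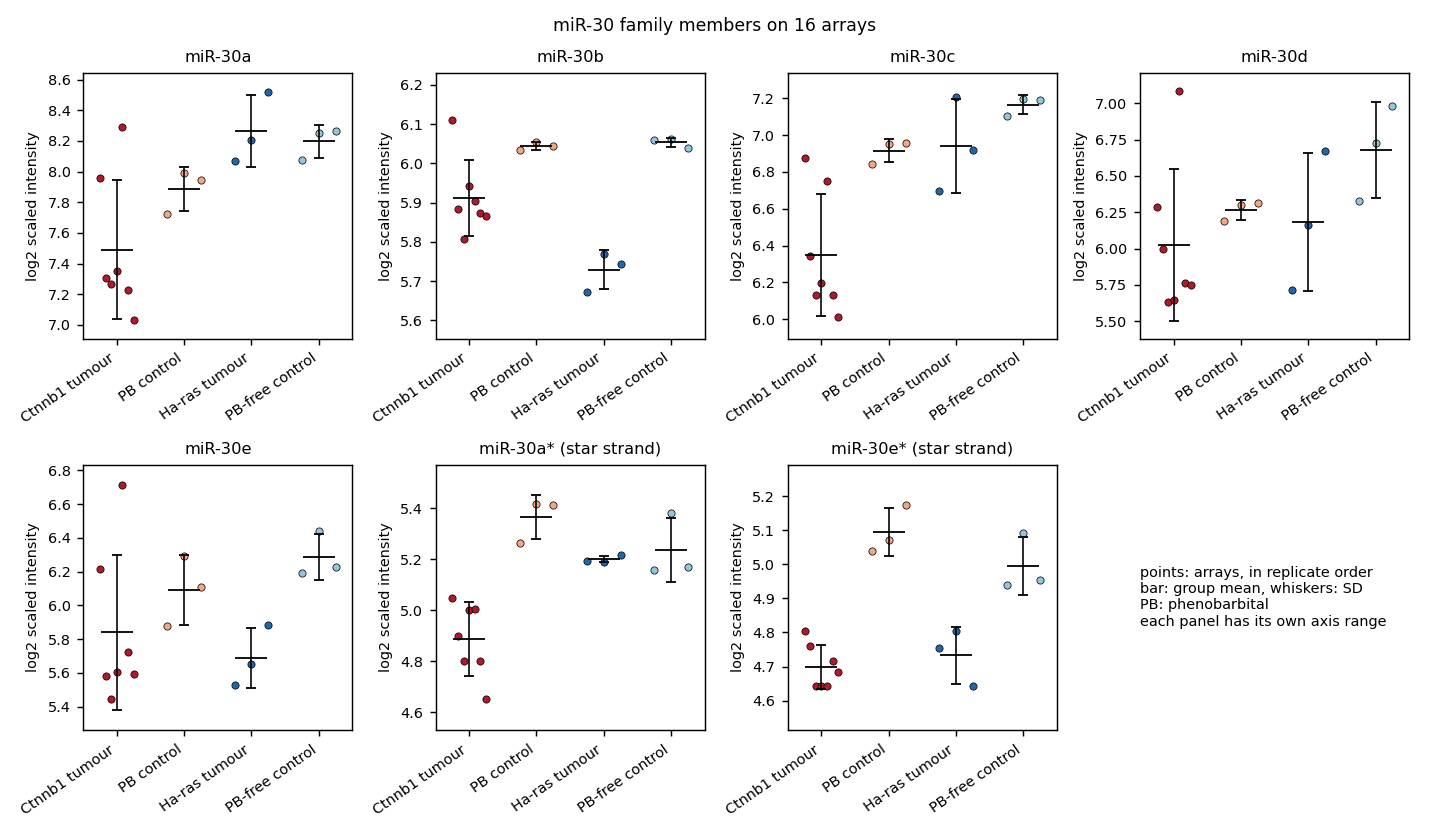
Each panel plots a member's log2 scaled intensity on 16 arrays by group, with points for arrays, a bar for the group mean and whiskers for the SD; the axis range differs between panels. Both star strands sit lower on all 7 Ctnnb1 tumour arrays than on all 3 phenobarbital control arrays, and miR-30b sits lowest in the 3 Ha-ras tumours.

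In Ctnnb1 tumours both star strands fell against phenobarbital controls, while no guide strand passed the test on the mean over probes. The median change over the 7 members was -0.39, against -0.05 over all 96 miRNAs. Of the members 7 of 7 were below 0, against 57.3% of all 96 miRNAs. The 2 called members compare with 8.33% of all tested miRNAs called, every one of them lower in the tumours. The groups did not overlap for these same 2 of 7 members, against 14.6% of all miRNAs. Neither star was detected on all Ctnnb1 tumours (miR-30a* on 6 and miR-30e* on 5 of 7). Both entered the test only through groups in which they were higher, for miR-30e* the phenobarbital-free controls alone. Their place in these counts therefore supports nothing.

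The star miR-30a* had levels of 4.65, 4.90 and 5.05 as the lowest, median and highest of the 7 Ctnnb1 tumours, and of 5.26, 5.42 and 5.41 in the 3 phenobarbital controls. Every tumour lay below every control. The log2 fold change was -0.48 (SE 0.10; limma adjusted p = 0.00382), or -0.70 on its brighter probe (adjusted p = 0.00743). Its other probe was at the floor on all 7 Ctnnb1 tumours and on no other array, so the floor limits the size of the mean change. This star was not detected in Ctnnb1 tumour replicate 7.

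The star miR-30e* ranged from 4.64 through a median of 4.68 to 4.80 in the Ctnnb1 tumours and was 5.04, 5.07 and 5.17 in the controls. It was not detected in Ctnnb1 tumour replicates 4 and 5 and in phenobarbital control replicate 4, and the groups did not overlap. In that control the measurable probe of this star read 5.44, above every tumour, though it was not called detected there. The log2 fold change was -0.40 (SE 0.08; limma adjusted p = 0.00318), and on its 1 measurable probe it was -0.79 (adjusted p = 0.00106). That probe was at the floor in Ctnnb1 tumour replicates 3 and 5, so the floor limits the size of this change.

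Among the guides, miR-30c came nearest to the threshold. Its levels were 6.01, 6.20 and 6.87 as the lowest, median and highest of the Ctnnb1 tumours and 6.84, 6.95 and 6.95 in the controls, so that only tumour replicate 1, at 6.87, reached the control range. The log2 fold change was -0.57 (SE 0.17; 95% interval -0.94 to -0.19; limma adjusted p = 0.0533). On its brighter probe miR-30c fell by 0.64 (adjusted p = 0.0174) with no overlap, which made 3 of 7 members called against 11.5% of all miRNAs. Without Ctnnb1 tumour replicate 1 or 5 it also passed on the mean over probes, at -0.65 (adjusted p = 0.00624) and -0.63 (adjusted p = 0.0205).

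The guide miR-30a was 7.03, 7.30 and 8.29 as the lowest, median and highest of the Ctnnb1 tumours and 7.72, 7.99 and 7.95 in the controls, a difference of -0.39 (SE 0.22; 95% interval -0.87 to 0.08; limma adjusted p = 0.319). Tumour replicates 1 and 5, at 7.96 and 8.29, lay in or above the control range and the other 5 lay below it. The differences of miR-30b (-0.13), miR-30d (-0.24) and miR-30e (-0.25) had limma adjusted p-values of 0.329, 0.643 and 0.549. On their brightest probes they were -0.26, -0.32 and -0.49 (limma adjusted p = 0.177, 0.484 and 0.188). For each of these 3 guides at least 1 tumour lay above the highest control.

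The calls of the star strands depended on scaling and slide. With the scaling taken over all mouse probes, the median change of the 96 miRNAs moved from -0.05 to 0.11 and neither star passed (-0.33 for miR-30a* and -0.23 for miR-30e*, limma adjusted p = 0.679 for both); relative to that median they stood at -0.43 and -0.34, against -0.43 and -0.35 under the main scaling. With slide as a fixed block, which links these groups only through the Ha-ras tumours, the values were -0.44 and -0.39 (adjusted p = 0.528 and 0.434), and with slide as a random block both passed (adjusted p = 0.000405 for both). The correlation estimated within slides for the random block was -0.12, a negative value that narrows the errors, so this fit does not account for a shared slide effect. No slide held both groups.

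**Figure D2:**
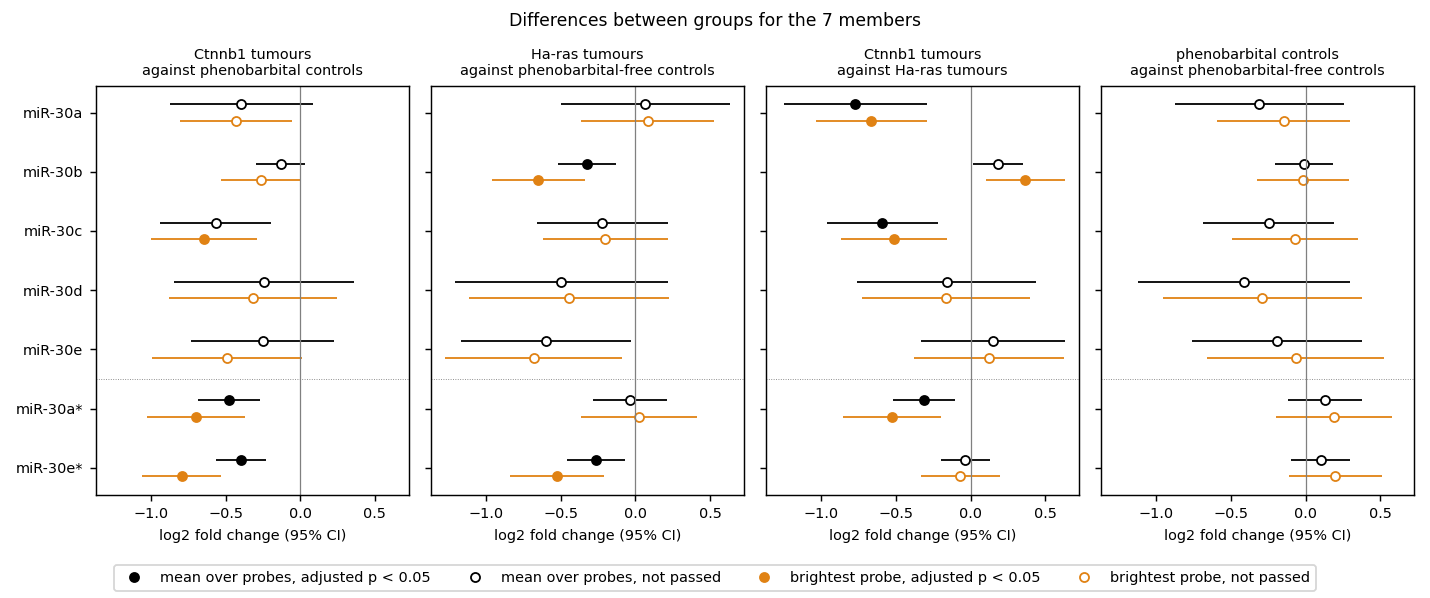
Log2 fold changes (x axis, with 95% intervals) of the 7 members (y axis) in 4 comparisons, from the mean over probes in black and the brightest probe in orange; filled points passed limma's adjusted p of 0.05. The black points of miR-30b and miR-30e* lie nearer to 0 than the orange ones, and both stars pass in Ctnnb1 tumours against phenobarbital controls.

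In Ha-ras tumours against phenobarbital-free controls the guide miR-30b fell, and the star miR-30e* fell, as it did in Ctnnb1 tumours against theirs. The guide miR-30a and its star had differences near 0 on this scaling. These 2 of 7 called members compare with 29.2% of all miRNAs called in either direction and 19.8% called lower, so the share is near the background. Of all the called miRNAs, 19 of 28 were lower, against 11 of 23 under quantile scaling and 0 of 12 when all mouse probes set the scale. The groups did not overlap for 3 of 7 members, against 42.7% of all miRNAs. The median over members was -0.26, against -0.06 over all 96.

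The guide miR-30b was at 5.67, 5.77 and 5.74 in the Ha-ras tumours and at 6.06, 6.06 and 6.04 in the phenobarbital-free controls. Every tumour lay below every control. Its log2 fold change was -0.33 (SE 0.09; limma adjusted p = 0.0146), and on its 1 measurable probe -0.65 (adjusted p = 0.00428), a 1.57-fold lower signal. The brightest probes gave the same number of called members, 2 of 7, against 31.2% of all miRNAs. Its call was lost without Ha-ras tumour replicate 1 (-0.30, adjusted p = 0.0632) and without phenobarbital-free control replicate 2 (-0.32, adjusted p = 0.0596).

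The star miR-30e* was at 4.75, 4.80 and 4.64 in the Ha-ras tumours, not being detected in replicate 3, and at 4.94, 5.09 and 4.95 in the controls. The groups did not overlap, and the log2 fold change was -0.26 (SE 0.09; limma adjusted p = 0.042), or -0.53 on its measurable probe (adjusted p = 0.0129), which was at the floor in replicate 3. This star entered the test only through the phenobarbital-free controls, the 1 group in which it was detected on all arrays. They are the higher group here, so its place in the count of called members supports nothing. This call was lost when any 1 of 11 arrays was left out, namely Ctnnb1 tumour replicate 2 or 4 or any array of the other 3 groups, with values of -0.30 to -0.21 and limma adjusted p-values of up to 0.158.

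The guide miR-30e had levels of 5.53, 5.65 and 5.88 in the Ha-ras tumours and 6.19, 6.44 and 6.23 in the controls, with no overlap. Its log2 fold change of -0.60 (SE 0.27; 95% interval -1.17 to -0.03) did not pass (limma adjusted p = 0.119), nor did -0.68 on its brightest probe (adjusted p = 0.0818). Without Ctnnb1 tumour replicate 5, an array that enters this comparison only through the shared spread, the change was -0.60 with an adjusted p of 0.0175.

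The guide miR-30a was at 8.07, 8.20 and 8.52 in the Ha-ras tumours and at 8.07, 8.25 and 8.26 in the controls. These ranges overlapped, and the difference was 0.07 (SE 0.26; 95% interval -0.50 to 0.63; limma adjusted p = 0.91). Its star had a difference of -0.04 (adjusted p = 0.887), miR-30c of -0.22 (adjusted p = 0.44) and miR-30d of -0.50 (adjusted p = 0.322).

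The directions in Ha-ras tumours rest on the scaling. With that same scaling over all mouse probes, the median change of the 96 miRNAs moved from -0.06 to 0.28, no member passed, miR-30b stood at -0.04 and miR-30e* at 0.0036, and miR-30c, miR-30d and miR-30a* turned to 0.35, 0.08 and 0.48; relative to that median miR-30b stood at -0.32 and miR-30e* at -0.28, against -0.27 and -0.21 under the main scaling. With slide as a fixed block miR-30b was at -0.30 (limma adjusted p = 0.23) and miR-30e* at -0.21 (0.332). Within slide 2, which held 2 of these tumours and 1 control, the values were -0.30 and -0.22, and with 1 array in an arm a test there says nothing on stability.

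The guides miR-30a and miR-30e, 1 base apart, thus had differences of 0.07 and -0.60 in Ha-ras tumours. Set against each other on the same array, where the scaling of the array cancels apart from the floor, all 3 Ha-ras tumours lay above every other sample. The value of miR-30a minus miR-30e was 2.54, 2.55 and 2.64 in the 3 Ha-ras tumours. It was 1.88, 1.81 and 2.04 in the phenobarbital-free controls, 1.85, 1.70 and 1.84 in the phenobarbital controls, and 1.44, 1.72 and 1.82 as the lowest, median and highest of the Ctnnb1 tumours. The mean of the Ha-ras tumours, 2.57 ± 0.06 (SD, n = 3), exceeded that of the phenobarbital-free controls, 1.91 ± 0.12 (SD, n = 3), by 0.66.

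On the brightest probe of each, which was above the floor on all arrays, the Ha-ras tumours had 2.92, 2.74 and 2.62 and the other 13 arrays 1.72 to 2.32. The Ha-ras mean was above that of its controls by 0.76. This pair was chosen after its values were seen, so no test is given. Such a separation was not particular to it: of the 21 pairs of members, 6 put all 3 Ha-ras tumours beyond all 13 other arrays, as did 13.9% of the 4560 pairs of tested miRNAs. The other 5 were miR-30a minus miR-30b, miR-30a minus miR-30d, miR-30c minus miR-30e, miR-30a* minus miR-30b and miR-30a* minus miR-30e*. Between the lowest Ha-ras tumour and the highest other array the gap was 0.50 for miR-30a minus miR-30e and 0.0047 to 0.11 for these 5. On the brightest probes 4 of 21 pairs did so, against 14.5% of all pairs, and miR-30a minus miR-30b had a wider gap than miR-30a minus miR-30e (0.42 against 0.30). The size of the difference within an array carries no meaning of its own, since the probes differ in brightness.

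**Figure D3:**
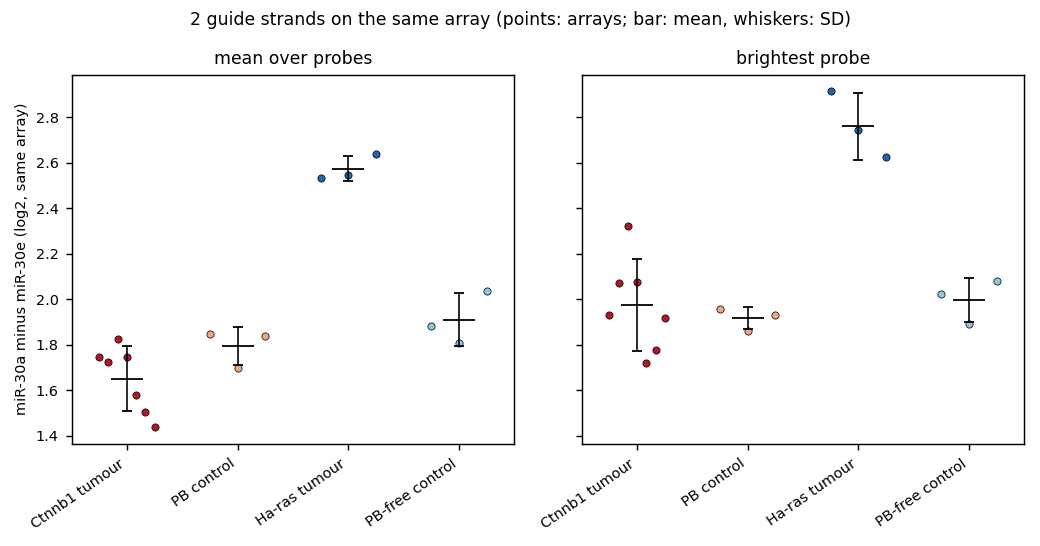
The log2 level of miR-30a minus that of miR-30e on the same array (y axis), by group, from the mean over probes (left) and from the brightest probe of each (right); points are arrays, bars means and whiskers SD. The 3 Ha-ras tumours lie above all 13 other arrays in both panels.

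Between the tumour kinds, Ctnnb1 tumours had less miR-30a and miR-30c and less of the star miR-30a* than Ha-ras tumours. This comparison shares its tumour arrays with the comparisons above. The 3 of 7 called members compare with 30.2% of all miRNAs called, and 13.5% called lower. Of all the called miRNAs, 13 of 29 were lower, against 10 of 32 under median scaling and 20 of 22 when all mouse probes set the scale. The groups did not overlap for 2 of 7 members, miR-30a* (lower) and miR-30b (higher), against 18.8% of all miRNAs. The star miR-30a* entered the test only through groups in which it was higher than in Ctnnb1 tumours, so its place in these counts supports nothing. The median over members was -0.16, against 0.08 over all 96.

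The log2 differences were -0.77 for miR-30a (SE 0.22; limma adjusted p = 0.0217), -0.59 for miR-30c (SE 0.17; adjusted p = 0.0226) and -0.31 for miR-30a* (SE 0.10; adjusted p = 0.0281). The Ha-ras tumours had 6.70, 7.21 and 6.92 for miR-30c and 5.19, 5.19 and 5.21 for miR-30a*. Ctnnb1 tumour replicates 1 and 5 reached the Ha-ras range of miR-30c, and replicate 5 that of miR-30a. For miR-30a* every Ctnnb1 tumour lay below every Ha-ras tumour.

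The guide miR-30b went the other way, at 0.18 (limma adjusted p = 0.0885), and on its measurable probe it was higher in Ctnnb1 tumours by 0.37 (adjusted p = 0.0324); scaled over all mouse probes its mean over probes turned to -0.09, and relative to the median of all miRNAs, which that scaling moved from 0.08 to -0.32, it stood at 0.23. The brightest probes gave 4 of 7 members called, against 32.3% of all miRNAs. The differences of miR-30d (-0.16), miR-30e (0.15) and miR-30e* (-0.03) did not pass, with limma adjusted p-values of 0.74, 0.684 and 0.803.

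Under median scaling miR-30a* no longer passed (-0.25, limma adjusted p = 0.067), while miR-30b passed as higher in Ctnnb1 tumours (0.23, adjusted p = 0.0343). Single Ha-ras tumours also decided calls. Those of miR-30a and miR-30c were lost without Ha-ras tumour replicate 2 (-0.80 and -0.46; limma adjusted p = 0.0837 and 0.124) or replicate 3 (-0.64 and -0.60; 0.0834 and 0.051), and that of miR-30a* without any of the 3 (-0.32, -0.32 and -0.31; 0.0854, 0.0952 and 0.0723). Within slide 1, which held all 7 Ctnnb1 tumours and 1 Ha-ras tumour, the values were -0.57, -0.35 and -0.31 for miR-30a, miR-30c and miR-30a*, and with 1 array in an arm a test there says nothing on stability. The hepatocyte marker miR-122 differed in the same direction as miR-30a (-0.59, limma adjusted p = 0.0407) and the leukocyte marker miR-223 in the opposite direction (0.82, adjusted p = 0.0188), and their part in the result was not tested.

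Without a tumour, phenobarbital livers did not differ detectably from phenobarbital-free livers in any member. The limma count was 0 of 7, against 0% of all 96 miRNAs, with 0 members and 6 miRNAs at an unadjusted p under 0.05. The differences ran from -0.41 for miR-30d (95% interval -1.12 to 0.30) to 0.13 for miR-30a* (95% interval -0.12 to 0.37). The groups did not overlap for 3 of 7 members, the guides miR-30a, miR-30c and miR-30d, all lower with phenobarbital, against 25% of all miRNAs. On the brightest probes miR-30c (-0.07) and miR-30d (-0.29) overlapped. There only miR-30a (lower, -0.15) and miR-30a* (higher, 0.19) did not, and the share over all miRNAs was not computed. The star strands leaned the other way, at 0.13 and 0.10.

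Whether the tumour effect differed between the kinds was tested as the change in Ctnnb1 tumours minus the change in Ha-ras tumours, each against its own controls. The limma count was 0 of 7 members, against 2.08% of all miRNAs, with 1 member and 17 miRNAs at an unadjusted p under 0.05. That member was miR-30a*, at -0.44 (95% interval -0.76 to -0.12; unadjusted p = 0.0105, adjusted p = 0.164). For miR-30b the difference was 0.19 (adjusted p = 0.438). A fall that passed in only 1 kind of tumour is therefore not shown to be particular to it.

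Ordered by group mean, miR-30a stood highest in Ha-ras tumours (8.26 ± 0.23, SD, n = 3), then in phenobarbital-free controls (8.20 ± 0.11, n = 3), phenobarbital controls (7.89 ± 0.14, n = 3) and Ctnnb1 tumours (7.49 ± 0.46, n = 7). Of these neighbours only the controls did not overlap, and their difference did not pass (limma adjusted p = 0.654). The other 4 guides were highest in phenobarbital-free controls. There miR-30b averaged 6.05 ± 0.01, miR-30c 7.16 ± 0.05, miR-30d 6.68 ± 0.33 and miR-30e 6.29 ± 0.14 (SD, n = 3). The lowest group was Ctnnb1 tumours for miR-30c (6.35 ± 0.33) and miR-30d (6.02 ± 0.52) and Ha-ras tumours for miR-30b (5.73 ± 0.05) and miR-30e (5.69 ± 0.18).

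Both stars were instead highest in phenobarbital controls, at 5.36 ± 0.09 for miR-30a* and 5.09 ± 0.07 for miR-30e* (SD, n = 3), and lowest in Ctnnb1 tumours, at 4.89 ± 0.14 and 4.70 ± 0.06 (SD, n = 7). The stars in the phenobarbital-free controls, at 5.24 ± 0.12 and 5.00 ± 0.08, overlapped the phenobarbital controls. In Ha-ras tumours miR-30e* (4.73 ± 0.08) overlapped the Ctnnb1 tumours, whereas miR-30a* (5.20 ± 0.01) overlapped the phenobarbital-free controls.

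Guide and star of the same hairpin were compared within each array, as log2 guide minus log2 star, and the groups were then compared with exact two-sided permutation tests, adjusted over 8 tests. None passed, and the design could hardly have passed: 3 against 3 arrays cannot go below 0.1, and 1 test of 7 against 3 arrays at its smallest p of 0.0167 would adjust to 0.133. Although in Ctnnb1 tumours only the stars were called, the guide-minus-star value did not differ detectably from phenobarbital controls for miR-30a (2.60 ± 0.36, n = 7, against 2.52 ± 0.06, n = 3; difference 0.08, exact permutation p = 0.917) or miR-30e (1.14 ± 0.46 against 0.998 ± 0.20; difference 0.14, exact permutation p = 0.75). Leaving out Ctnnb1 tumour replicate 5 turned both differences slightly below 0, to -0.03 and -0.01. On the brightest probes they were 0.26 (exact permutation p = 0.117) and 0.30 (exact permutation p = 0.3).

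The guide-minus-star value of miR-30a was 2.46, 2.57 and 2.53 in phenobarbital controls and 2.92, 2.87 and 3.09 in phenobarbital-free controls. The 2 control groups did not overlap, and the difference of -0.44 had an exact permutation p of 0.1, the smallest that 3 against 3 arrays can give (adjusted 0.2). For miR-30e the phenobarbital-free controls, at 1.25, 1.35 and 1.27, lay above both the phenobarbital controls (0.84, 1.22 and 0.94; difference -0.29) and the Ha-ras tumours (0.78, 0.85 and 1.24; difference -0.34), each with that same smallest exact permutation p of 0.1 (adjusted 0.2). On the brightest probes the 2 control groups still did not overlap, at -0.34 for miR-30a and -0.26 for miR-30e (exact permutation p = 0.1 for both). There the Ha-ras tumours overlapped the phenobarbital-free controls for miR-30e, with a difference of -0.16 (exact permutation p = 0.5).

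Between Ctnnb1 and Ha-ras tumours the difference was -0.46 for miR-30a (exact permutation p = 0.1, adjusted 0.2) and 0.19 for miR-30e (exact permutation p = 0.633). On the brightest probes these were -0.14 (exact permutation p = 0.35) and 0.19 (exact permutation p = 0.6). The remaining test, miR-30a in Ha-ras tumours against their controls, gave 0.10 (exact permutation p = 0.7). Because the stars lie near the floor, these values also move with it.

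**Figure D4:**
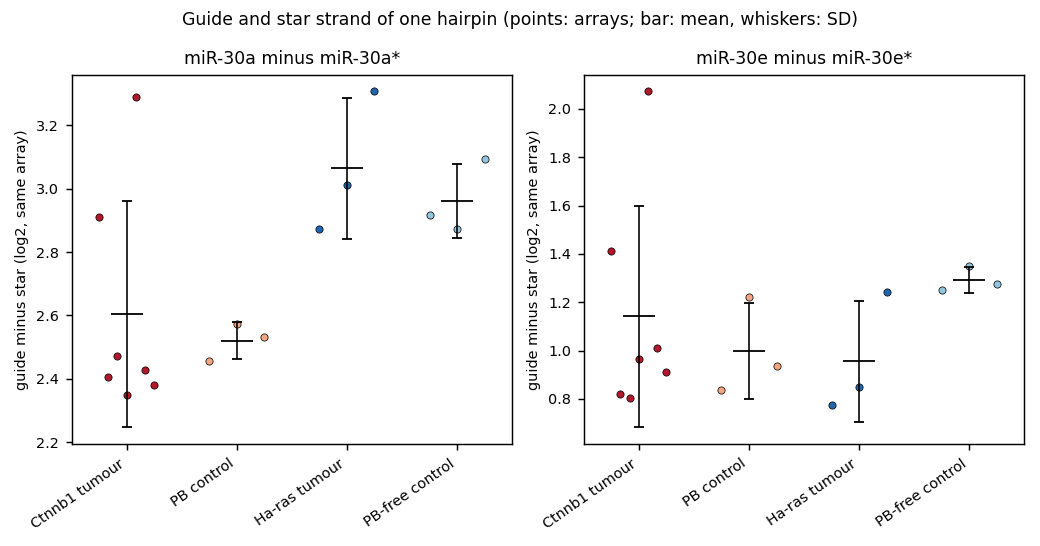
Guide minus star on the same array (y axis, log2) by group for the hairpins of miR-30a (left) and miR-30e (right); points are arrays, bars means and whiskers SD. Ctnnb1 tumour replicates 1 and 5 stand above the other 5 in both panels, and the control groups do not overlap in either.

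Other hairpins gave little background: of 115 star strands on the array 5 were tested, and outside this family 2 hairpins had both strands tested. In Ctnnb1 tumours against phenobarbital controls, miR-22 and miR-22* had log2 changes of -0.09 and -0.10, and miR-140 and miR-140* of -0.29 and 0.16. The strands of miR-30a changed by -0.39 and -0.48 and those of miR-30e by -0.25 and -0.40, so that in each miR-30 hairpin both strands had the same sign, as they did under the 3 other scalings, although miR-30e turned to 0.014 with slide as a fixed block.

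After each group's mean was subtracted, the 10 pairs of guides had Pearson correlations of 0.33 to 0.94 over 16 arrays, with a median of 0.76, and the highest was between miR-30a and miR-30e. The 10 pairs of a guide and a star had values of -0.08 to 0.70 (median 0.43), and the 2 stars 0.38. All share the scaling of the array, and the stars share the compression at the floor.

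Ctnnb1 tumour replicates 1 and 5 stood above their group for 4 of the 5 guides together. Replicate 5 lay above the mean of its group by 0.80 for miR-30a, 0.40 for miR-30c, 1.06 for miR-30d and 0.87 for miR-30e, and replicate 1 by 0.47, 0.52, 0.26 and 0.37. For miR-30b they stood at -0.01 and 0.20, for miR-30a* at 0.12 and 0.16, and for miR-30e* at -0.06 and 0.10. These last values are shrunk by averaging with a probe at the floor. The measurable probe of miR-30b read 7.16 in replicate 5 and 7.58 in replicate 1, against a group mean of 7.18. In replicate 5 the guides miR-30a, miR-30d and miR-30e thus reached 8.29, 7.09 and 6.71, above every phenobarbital control. The star miR-30e* was not detected in this tumour. The weakest scaled signal called detected on its array was 38.0, the highest such limit of the 7 Ctnnb1 tumours. The miR-30e* signals of this group were at most 27.9, so the missing call says little.

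**Figure D5:**
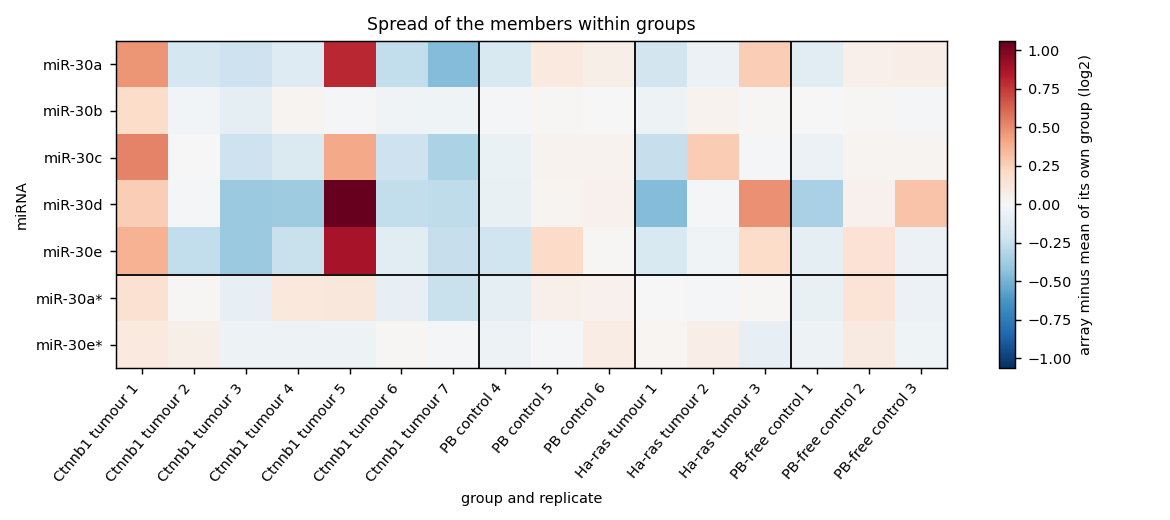
Deviation of each array (x axis) from the mean of its own group for each member (y axis), on a log2 colour scale; the guides are above the horizontal line and the stars below. Ctnnb1 tumour replicates 1 and 5 are high for miR-30a, miR-30c, miR-30d and miR-30e, with smaller deviations for the stars. In these tumours the deviations of miR-30b and both stars are shrunk by averaging with a probe at the floor.

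The tested miRNAs most like the mean profile of the 5 guides over the 16 arrays were miR-26a (Pearson r = 0.94), miR-99a (0.91) and miR-125b-5p (0.89), and the least like was miR-15b (-0.76). Within groups the same 4 had r of 0.89, 0.92, 0.88 and -0.55. Most like the mean profile of the 2 stars were miR-101a (0.86), miR-195 (0.80) and miR-338-3p (0.77, detected on 10 arrays), and least like was miR-185 (-0.57). Within groups these had 0.79, 0.50, 0.59 and -0.33. The arrays share their scaling, so these are descriptions with no test.

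The other strands of the family on the array were at or near its limit, and the star miR-30d* was not on it. The hairpin partners miR-30b*, miR-30c-1* and miR-30c-2* and the guide miR-384-5p, which carries the same seed GUAAACA as the miR-30 guides, had no probe detected on any of the 16 arrays.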

How the data were processed

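Total RNA (25 ng per array, per the labels) of 16 samples was hybridised to 1-colour miRNA arrays. The intensity used is the background-corrected signal that Agilent Feature Extraction 10.7.3.1 wrote, per the file headers; the array design's genome build is mm9, per the file headers. The deposited series table holds the authors' own log2 values for 147 entries, from -1 to 14.88; beyond R 2.14.1, named in the submitters' processing notes, their normalisation is not stated, and they served as an alternative.

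Outlier spots were left out and spots averaged per probe. Arrays were brought to a common 75th percentile, taken over 117 mouse probes with detection in all samples (386 to 1248 before scaling), floored at 24.96 and averaged per miRNA on the log2 scale. limma 3.58.1 in R 4.3.3 fitted 4 group means on 16 arrays for the 96 miRNAs that were detected throughout some group, with Benjamini-Hochberg adjustment, after a check on simulated data. Strands were compared with exact permutation tests. Array number limits precision.

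All 7 members are named. Also named are the hairpin partners, the same-seed miRNA, miR-122, and the 3 tested miRNAs most like and the 1 least like each mean profile. The members, lists and tests were chosen with earlier results of these data known. Alternatives varied scaling, background, floor, filter, slide block, replicate block and arrays; the brightest probe was added after seeing the data. Sequences came from RefSeq GRCm38.p6.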

Additional observations from a re-analysis of the deposited data

Results flagged for a closer look

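The star strand miR-30c-2*, outside the comparisons, was called detected by the scanner software on 3 of 10 tumour arrays (Ctnnb1 tumour replicate 1 and Ha-ras tumour replicates 1 and 2) and on 0 of 6 control arrays, although no single probe of it passed the detection rule used here. It is listed because these calls, in data not otherwise used, fell on tumour arrays alone. No signal level was compared, and 3 of 10 against 0 of 6 arrays was not tested. The weakest scaled signals called detected on these 3 arrays were low, at 17.7, 15.6 and 19.98 in that order. The lowest such limit of a control array was 24.5, in phenobarbital control replicate 5. Ctnnb1 tumour replicate 3, at 18.8, had no such call. The part of unequal limits in these calls was not tested, and the share of other miRNAs with this pattern was not computed. The star miR-30b* was called on 1 array, phenobarbital control replicate 6. None of the 9 series of 7 Ctnnb1 tumour values examined for a sample apart had one.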

How the results depend on the processing

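Few arrays, all Ctnnb1 tumours on 1 slide, and star strands near the floor limit these results. The number of members called in Ctnnb1 tumours against phenobarbital controls, 2 in the report, was 0 under scaling over all mouse probes, total gene signal, normexp background, the deposited table, slide as a fixed block and the filter for detection on all arrays, which leaves out both stars, and 1 under median scaling and a floor multiplied by 1.5; leaving out single arrays gave 2 to 3. In Ha-ras tumours against phenobarbital-free controls, with 2 in the report, it was 0 under scaling over all mouse probes, quantile scaling, normexp background, the deposited table, slide as a fixed block and within slide 2, and 1 under median scaling, a floor multiplied by 0.5 or 1.5 and detection on all arrays; leaving out single arrays gave 0 to 3, with 0 without Ha-ras tumour replicate 1 or phenobarbital-free control replicate 2. Between the tumour kinds, with 3 in the report, it was 1 under normexp background and the deposited table, and 0 with slide as a fixed block, within slide 1 and with only the 2 groups in the fit; leaving out single arrays gave 0 to 3. It was 0 in the other 2 comparisons under every alternative. Calls over all tested miRNAs numbered 8 in Ctnnb1 tumours against controls, and 4 with median scaling or detection on all arrays, 2 with normexp background, the deposited table or the replicate block, 1 with slide as a fixed block, 0 when all mouse probes set the scale and 20 with slide as a random block. In Ha-ras tumours against controls the 28 became 9 to 14 with the deposited table, the fixed slide block, all-probe scaling, normexp background or the replicate block, and 2 within slide 2. Between tumours the 29 became 19 with normexp background or detection on all arrays, 13 with only 2 groups, 8 with the fixed slide block, 5 within slide 1 and 3 with the replicate block. Leaving out single arrays, the 8 ranged from 5 (without phenobarbital control replicate 6) to 18 (without Ctnnb1 tumour replicate 1). The 28 ranged from 13 (without Ha-ras tumour replicate 1 or phenobarbital-free control replicate 2) to 33, with 18 without phenobarbital-free control replicate 3. The 29 between tumours ranged from 5 (without Ha-ras tumour replicate 2) to 29, with 11 without Ha-ras tumour replicate 1. The causes were not tested.

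Guide-minus-star differences had ranges over single arrays left out, for miR-30a, of -0.030 to 0.13 (Ctnnb1 tumours against controls), -0.019 to 0.20 (Ha-ras tumours against controls, below 0 without Ha-ras tumour replicate 3), -0.57 to -0.34 (between tumours) and -0.48 to -0.37 (between controls), and for miR-30e of -0.012 to 0.25, -0.48 to -0.25, 0.030 to 0.33 and -0.40 to -0.21. Signs turned for miR-30a in Ctnnb1 tumours with the floor multiplied by 1.5 (-0.13), and with the deposited table in Ha-ras tumours (-0.33) and between tumours (0.65). For miR-30e they turned in Ctnnb1 tumours with the floor multiplied by 0.5 or 1.5 (-0.021 and -0.038), in Ha-ras tumours with total gene signal and the deposited table (0.29 and 1.71), and between tumours with total gene signal, the deposited table and scaling over all mouse probes (-0.14, -0.42 and -0.018).

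Among single members the sign turned in Ctnnb1 tumours for miR-30d (0.55) and miR-30e (0.014) with slide as a fixed block. In Ha-ras tumours it turned for miR-30a with total gene signal (-0.069), the deposited table (-0.14) and without Ha-ras tumour replicate 3 (-0.063), for miR-30c (0.35), miR-30d (0.076) and miR-30e* (0.0036) with scaling over all mouse probes, and for miR-30d within slide 2 (0.085). There miR-30a*, at -0.04 in the report, was 0.48 with scaling over all mouse probes, 0.0083 with median scaling, 0.15 with quantile scaling, 0.011 with the floor multiplied by 1.5, 0.19 in the deposited table, 0.022 on the brightest probe, 0.030 with slide as a fixed block, 0.045 within slide 2 and 0.036 without phenobarbital-free control replicate 2. Between tumours the sign turned for miR-30b (-0.091) and miR-30e (-0.25) with scaling over all mouse probes, for miR-30e in the deposited table (-0.14), for miR-30d with slide as a fixed block and within slide 1 (0.30 in each) and without Ha-ras tumour replicate 3 (0.084), and for miR-30e* with total gene signal (0.18), normexp background (0.12), the deposited table (0.28), the replicate block (0.0022) and without Ha-ras tumour replicate 2 (0.00060). Over single arrays left out, these changes ranged from -0.063 to 0.16 for miR-30a and -0.076 to 0.036 for miR-30a* in Ha-ras tumours, and from -0.39 to 0.084 for miR-30d and -0.080 to 0.00060 for miR-30e* between tumours.

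Whether replicate numbers shared between groups pair the samples could not be decided, since few numbers are shared and deviations were centred within small groups. Correlations of same-numbered deviations were 0.24, -0.06 and -0.77 for Ctnnb1 tumours and controls, 0.58, -0.68 and -0.09 for Ha-ras tumours and controls, and -0.05, 0.24 and -0.18 between tumours. With the replicate block 0 members were called in these comparisons and in the difference of tumour effects, and guide-minus-star differences were 0.17, 0.10 and -0.47 for miR-30a and 0.35, -0.34 and 0.056 for miR-30e. The control groups share no numbers, so no such fit was made for them.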
